A study of Homo sapiens with 18 samples.

Results

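The clustered histone genes were examined as 72 of the 70523 features on the GeneChip Human Transcriptome Array 2.0. A feature was a member if every gene symbol paired with it was a clustered histone symbol, either in the old form (HIST1H, HIST2H or HIST3H) or in the current form (H1-1 to H1-6, and H2AC, H2BC, H3C or H4C with a number). No measured value entered this choice. Of the members, 35 features named 1 gene and 37 named several, and the members named 72 different genes in all. There were 6 features of class H1, 17 of H2A, 21 of H2B, 13 of H3 and 15 of H4, and 2 of the features belonged to pseudogenes (H2BC20P and H2AC2P). By the chromosome in the feature ID, 56 members lay on chromosome 6, 15 on chromosome 1 and 1 on chromosome 12.

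Histones H2A, H2B, H3 and H4 form the protein core around which DNA is wound in the nucleosome, and linker histone H1 binds where DNA enters and leaves it. The clustered, replication-dependent genes supply most of this protein while DNA is copied in S phase. Their mRNAs lack introns and end in a stem-loop in place of a poly(A) tail, are bound by SLBP, and are degraded when DNA synthesis stops. Some clustered genes can also give polyadenylated transcripts, which have been found in cells that have left the cycle.

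The arrays measured total RNA of HCC4006, an established human lung adenocarcinoma line with mutant EGFR. Cells received an siRNA against Notch1 (N1), against Notch3 (N3) or without a target (NTC, the control) and were then given the vehicle DMSO or 0.1 µM erlotinib, an inhibitor of the EGFR tyrosine kinase, for 5 days according to the series' design text, whereas the paper's text gives a longer time. Each of the 6 groups had 3 arrays, and all groups shared the line and the transfection. The arrays of N3 in erlotinib were numbered 4 to 6 and all others 1 to 3, so any separate handling of that group cannot be told apart from its treatment.

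Levels are log2 values, and differences are log2 fold changes given with the standard error (SE) of the limma fit. A feature was called higher or lower at a Benjamini-Hochberg adjusted p under 0.05 over all 70523 features. Arrays within a group correlated at r of 0.992 to 0.997 and arrays of different groups at 0.979 to 0.997. NOTCH3 was lower with N3 siRNA in DMSO (-0.57, adjusted p = 9.23e-05, limma) and in erlotinib (-0.57, adjusted p = 8.04e-05). NOTCH1 was lower with N1 siRNA in DMSO (-0.30, adjusted p = 0.00503). Its difference of -0.08 in erlotinib was not called (adjusted p = 0.399), so that the array did not show the N1 knockdown there. In that comparison NOTCH3 was higher (0.25, adjusted p = 0.0377, limma). NOTCH1 was also lower with erlotinib in NTC cells (-0.18, adjusted p = 0.0149, limma). By western blot, the paper reports that both knockdowns were specific and appeared complete. The epithelial markers EPCAM, KRT8, KRT18, KRT19, CDH1 and EGFR lay at or above the 95.1th percentile of every array. Leukocyte PTPRC lay between the 12th and the 14.5th percentile and endothelial PECAM1 between the 17.8th and the 36.7th, whereas CDH5, PDGFRB and COL1A1 reached the 54.5th, 56.5th and 76.4th.

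The 37 features with several genes need care. Of the 15 H4 features, 13 named the same 14 genes, and 9 of the 13 H3 features named the same 10 genes. Such a feature is called here by its first listed gene ("H4C8-first"), and how much each near-identical gene gave to its signal cannot be told apart. The chromosome 6 feature listing H4C15 first carried an ID from another chromosome than that gene's. Only 64 members lay above the array median on at least 3 arrays, and the other 8 (H2BC1, H2BC6, H4C6-first, H4C9-first, H2AC1, H1-6, H4C7 and H2AC14) were at low signal but were still tested.

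Core promoters of clustered histone genes share short elements: a TATA box (TATAAA), the CCAAT box (read as ATTGG on the other strand), the octamer (ATTTGCAT, or ATGCAAAT on the other strand) known from H2B genes, and the H1 box (AAACACA). In the 250 bases before the start site, RefSeq promoters (GRCh38.p14) were present for 64 of the 72 genes, and each motif was searched on both strands. TATAAA was in 65.6% of them against 11.1% of all 27305 promoters, CCAAT in 54 of 64 against 9021 of all, and ATTTGCAT in 40.6% against 1.66%. A match counted wherever it lay in the 250 bases. Some TATAAA matches lay far from the start, the nearest at -219 in H2BC14 and at -250 in H4C16. The former was the TATAAA at -31 of H2AC14, whose start lay 245 bases away. The octamer was in 14 of 18 H2B and 11 of 16 H2A promoters, in 1 of 11 H3 promoters and in no H1 or H4 promoter. That H3 entry, H3C4, had the same start as the H2AC7 entry, 223 bases from the start of H2BC7. The same promoter was thus counted under both names, as H3 and as H2A. Windows of head-to-head genes also overlap, so the same site can count for both genes. The octamers at -204 of H2AC14 and at -48 of H2BC14, with 245 bases between starts, were the same site. So were those at -197 of H2AC20 and at -46 of H2BC21, with 236 bases between starts. The H2A and H2B counts are thus not all of separate sites. AAACACA was in all 6 H1 promoters and in no promoter of another class, against 4.95% of all promoters. CCAAT was in every H1, H2A, H2B and H3 promoter and in 3 of 13 H4 promoters. The 200 bases before the start are printed for 2 genes that rose with erlotinib (H2BC21 and H2AC6), for 3 that fell and are named alone by their feature (H2BC10, H2AC21 and H1-5), and for the first listed genes of the H4 feature that rose most (H4C8) and of the H3 feature that fell most (H3C2). Capitals mark these motifs, and a match describes the letters only.
H2BC21, chr1:149886683-149886882 (GRCh38.p14, minus strand): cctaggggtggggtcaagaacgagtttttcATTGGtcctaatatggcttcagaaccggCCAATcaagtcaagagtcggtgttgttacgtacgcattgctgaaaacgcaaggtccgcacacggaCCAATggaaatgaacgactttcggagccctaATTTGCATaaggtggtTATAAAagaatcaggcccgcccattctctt
H2AC6, chr6:26123972-26124171 (GRCh38.p14, plus strand): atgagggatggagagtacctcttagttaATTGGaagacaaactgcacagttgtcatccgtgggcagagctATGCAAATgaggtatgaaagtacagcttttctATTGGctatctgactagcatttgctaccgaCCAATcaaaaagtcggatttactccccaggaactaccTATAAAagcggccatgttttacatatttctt
H2BC10, chr6:26272731-26272930 (GRCh38.p14, plus strand): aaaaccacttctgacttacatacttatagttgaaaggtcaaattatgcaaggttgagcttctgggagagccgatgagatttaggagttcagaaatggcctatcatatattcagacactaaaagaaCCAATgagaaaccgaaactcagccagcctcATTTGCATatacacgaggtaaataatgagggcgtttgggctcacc
H2AC21, chr1:149887966-149888165 (GRCh38.p14, minus strand): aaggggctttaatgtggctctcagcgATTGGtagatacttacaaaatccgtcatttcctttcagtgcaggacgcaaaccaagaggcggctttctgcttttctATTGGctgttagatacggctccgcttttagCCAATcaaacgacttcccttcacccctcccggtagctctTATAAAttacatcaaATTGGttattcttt
H1-5, chr6:27867589-27867788 (GRCh38.p14, minus strand): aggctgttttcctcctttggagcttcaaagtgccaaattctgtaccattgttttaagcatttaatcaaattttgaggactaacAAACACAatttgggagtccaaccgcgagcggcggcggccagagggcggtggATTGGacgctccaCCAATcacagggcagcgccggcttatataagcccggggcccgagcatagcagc
H4C8, chr6:26285535-26285734 (GRCh38.p14, minus strand): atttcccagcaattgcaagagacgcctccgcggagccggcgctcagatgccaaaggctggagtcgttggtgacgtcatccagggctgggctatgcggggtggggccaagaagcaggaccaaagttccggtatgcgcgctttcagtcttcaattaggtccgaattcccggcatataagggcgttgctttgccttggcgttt
H3C2, chr6:26032100-26032299 (GRCh38.p14, minus strand): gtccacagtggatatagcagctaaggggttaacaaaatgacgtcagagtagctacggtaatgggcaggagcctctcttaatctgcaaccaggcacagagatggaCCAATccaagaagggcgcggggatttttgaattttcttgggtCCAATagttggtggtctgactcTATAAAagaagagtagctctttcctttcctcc

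Erlotinib lowered most clustered histone features in NTC cells. Of the 72 members, 55 were lower and 6 higher, while 11 were not called; of all features, 9.44% were lower and 14.6% higher, and of features that name a gene, 15.7% and 17.5%. The median member difference was -1.13, against 0.02 over all features. By the thresholds of the paper's Methods (unadjusted p under 5e-04 and at least 2-fold), 41 members were lower and 4 higher, against 0.808% and 1% of all features. Of the features with 1 gene, 27 of 35 were lower and 3 higher with a median of -1.03, and of those with several, 28 of 37 were lower and 3 higher with a median of -1.24. In 63 of 72 members the 3 erlotinib arrays did not overlap the 3 DMSO arrays, a count that was not made for all features. In bulk RNA, fewer cells in S phase and less histone mRNA per cell cannot be told apart.

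**Figure D1:**
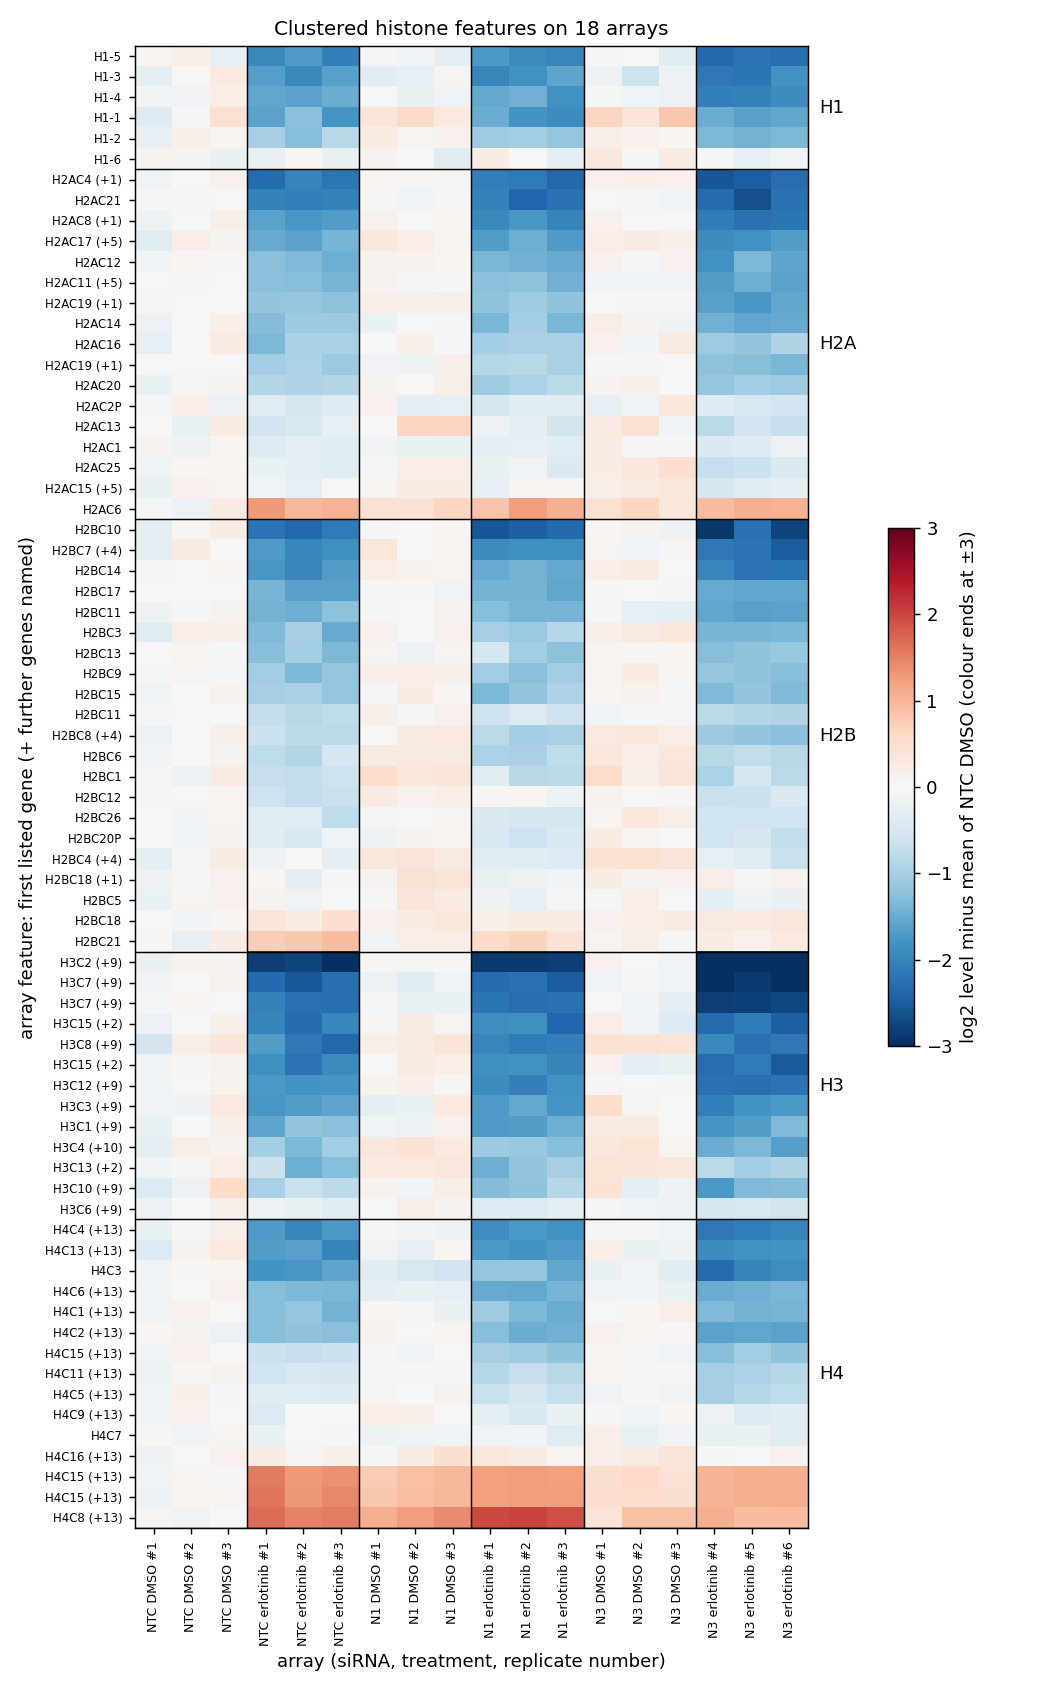
Heat map of the 72 features (rows, by class and then by erlotinib change in NTC) on 18 arrays (columns); colour is the log2 level minus the feature's mean on the NTC DMSO arrays, blue lower and red higher. The 3 erlotinib blocks are mostly blue, with 55, 59 and 60 members lower in NTC, N1 and N3, and a few red rows at the foot of H2A, H2B and H4.

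Linker histones fell as a class: 5 of 6 H1 features were lower, with a median of -1.55. H1-5 read 5.33, 5.46 and 5.03 on the NTC DMSO arrays and 3.33, 3.58 and 3.22 on the NTC erlotinib arrays, a difference of -1.90 (SE 0.12, adjusted p = 9.16e-09, limma). Every erlotinib array lay below every DMSO array. H1-3 differed by -1.74 and H1-4 by -1.56, and H1-1 by -1.54. H1-2, a linker histone that can be polyadenylated, went from 7.86, 8.25 and 8.18 to 7.11, 6.83 and 7.26, a smaller fall of 1.03 on the log2 scale. The exception was H1-6, the testis-specific linker histone, at -0.13 (adjusted p = 0.577) and above the array median on only 2 arrays.

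Of the H2A features, 13 of 17 were lower and 1 was higher, with a median of -1.10. Among single-gene features the lowest differences were in H2AC21 and H2AC12. H2AC21 read 8.97, 9.04 and 9.01 in DMSO and 6.99, 6.95 and 6.98 in erlotinib, a 4.09-fold fall (-2.03, SE 0.09). The replicates of either group spanned far less than the gap between them. H2AC12 differed by -1.35. Among features with several genes, H2AC4-first differed by -2.16 and H2AC8-first by -1.68, while H2AC15-first (-0.12, adjusted p = 0.48) was not called. H2AC25 (-0.27, adjusted p = 0.0607) and H2AC13 (-0.42, adjusted p = 0.1) were not called either, although their groups did not overlap.

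H2AC6 moved the other way. It read 6.39, 6.27 and 6.70 in NTC DMSO and 7.73, 7.42 and 7.50 in NTC erlotinib, so that all 3 erlotinib arrays were higher, by 2.14-fold (1.10, SE 0.12, adjusted p = 5.38e-06, limma). It encodes a core H2A and is one of the clustered genes known to give polyadenylated transcripts.

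Of the H2B features, 16 of 21 were lower and 2 higher, with a median of -0.75. H2BC10 fell 4.69-fold, from 7.77, 8.11 and 8.26 to 5.84, 5.69 and 5.92 (-2.23, SE 0.15, adjusted p = 1.15e-08), and H2BC14 differed by -1.80. H2BC7-first was lowest among those with several genes (-1.83). H2BC21 was higher, at 7.41, 7.12 and 7.60 in DMSO and 8.12, 8.19 and 8.31 in erlotinib (0.83, SE 0.11, adjusted p = 3.67e-05), with no overlap of the arrays. The single-gene H2BC18 feature was higher by 0.36 (adjusted p = 0.000995), whereas the feature shared by H2BC18 and H3-7 was at -0.09 (adjusted p = 0.631). H2BC5 was at -0.01 (adjusted p = 0.975) and H2BC4-first at -0.15 (adjusted p = 0.408).

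The H3 features had the lowest class median, -1.76, and 12 of 13 were lower. None of them names 1 gene alone. H3C2-first read 8.30, 8.60 and 8.61 in DMSO and 5.67, 5.75 and 5.47 in erlotinib, a 7.33-fold fall (-2.87, SE 0.09, adjusted p = 2.7e-12, limma). This was the lowest difference of all 72 members. The H3C7-first features differed by -2.39 and -2.18. H3C6-first was at -0.22 (adjusted p = 0.0577) and its arrays overlapped. H3C10-first was lower (-0.80, adjusted p = 0.018), but not without NTC DMSO replicate 3 or NTC erlotinib replicate 1.

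The H4 features were split. Of the 15, 9 were lower and 3 higher, with a median of -0.53. H4C4-first differed by -1.80 and H4C13-first by -1.77, and H4C3, named alone by its feature, fell from 9.77, 9.89 and 9.93 to 8.08, 8.12 and 8.29 (-1.70, SE 0.12). H4C7, an H4 feature at low signal, was at -0.08 (adjusted p = 0.642). Against these, H4C8-first rose from 6.42, 6.23 and 6.35 to 8.01, 7.83 and 7.87, 2.97-fold (1.57, SE 0.11, adjusted p = 3.71e-08). The H4C15-first features with chromosome 1 IDs rose by 1.44 and 1.40. One of them read 7.85, 8.09 and 8.11 in DMSO and 9.62, 9.31 and 9.45 in erlotinib. Over the 18 arrays these features differed by 0.085 on average and by at most 0.14, so they count as nearly the same measurement. The chromosome 6 feature that lists H4C15 first was instead lower (-0.66). Features that name the same 14 genes thus moved in opposite directions in the same arrays.

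**Figure D2:**
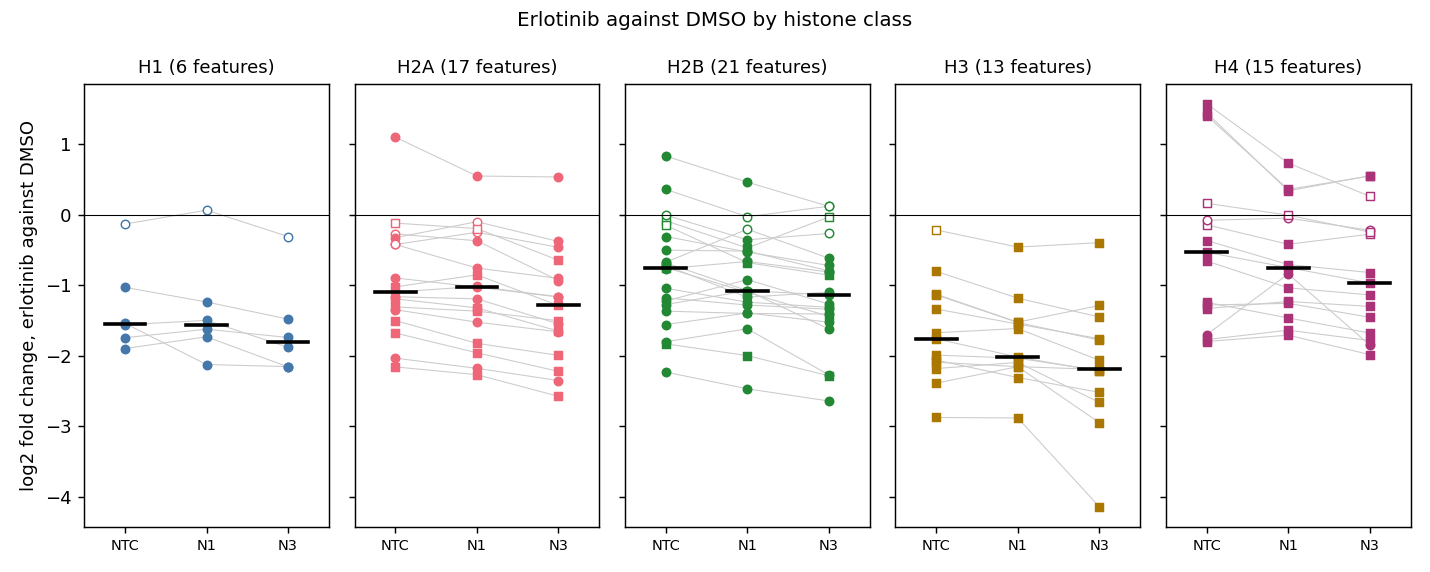
Log2 fold change of erlotinib against DMSO (y axis) in NTC, N1 and N3 cells (x axis) for each feature, in 1 panel per class; circles name 1 gene, squares several, filled symbols were called, black bars are class medians and grey lines join a feature. Class medians in NTC run from -1.76 in H3 to -0.53 in H4, and the features called higher there lie in H2A, H2B and H4.

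**Figure D3:**
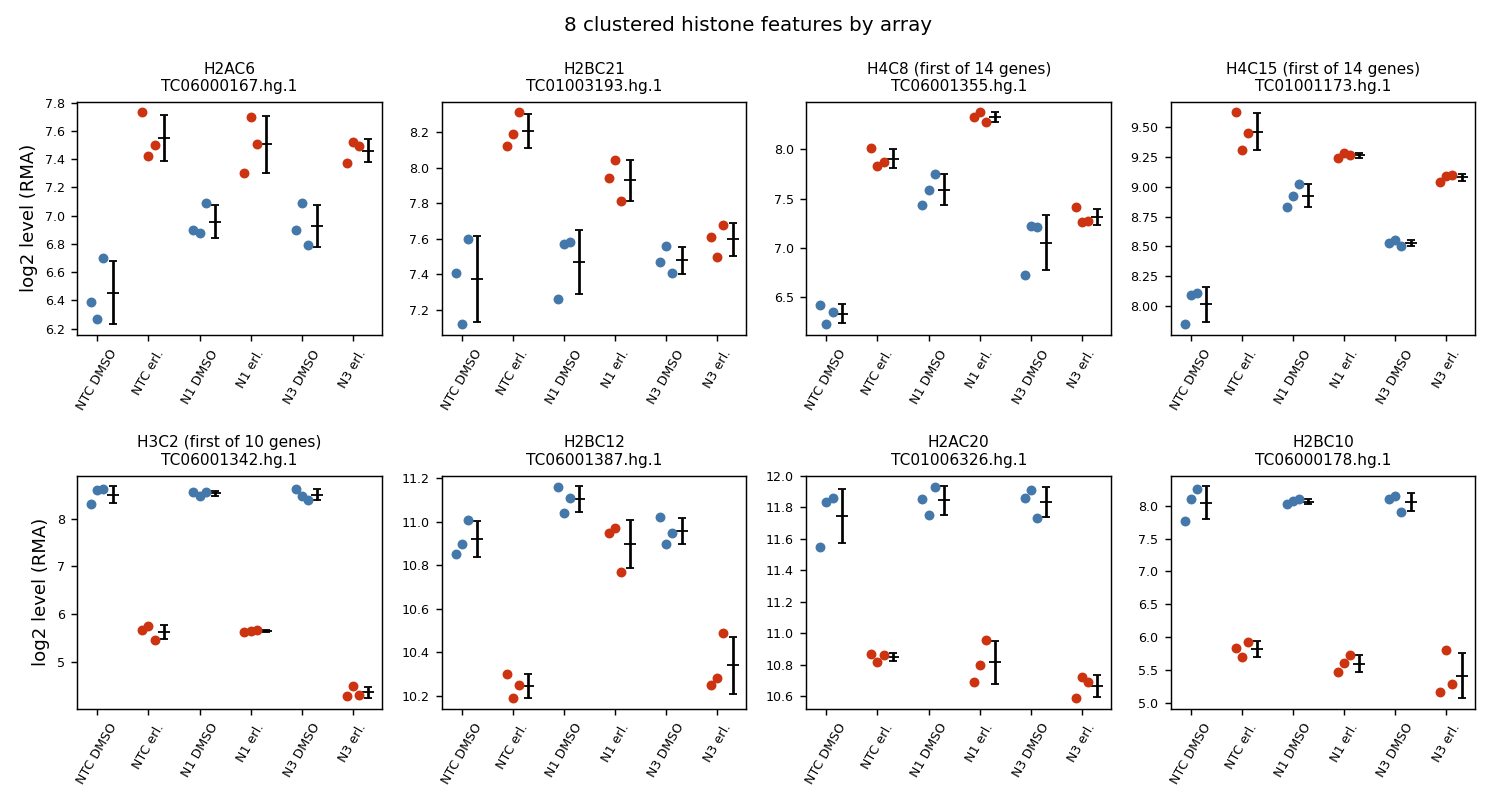
Log2 level (y axis, a separate range for each feature) of 8 features on every array of the 6 groups (x axis; blue DMSO, red erlotinib); the black mark and bar are the mean and SD of 3 arrays. H2AC6, H2BC21, H4C8-first and H4C15-first rise with erlotinib in NTC, whereas H3C2-first, H2BC12, H2AC20 and H2BC10 fall.

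Many H2A and H2B genes lie head to head, and 12 pairs with members had starts close enough to share a promoter window. Among these 12, the pairs of H2AC7 and of H3C4 with H2BC7 had the same starts and are a single pair listed under both names. H2BC21 and H2AC20, with 236 bases between their starts, were called in opposite directions in NTC cells. H2AC20 read 11.55, 11.83 and 11.86 in DMSO and 10.87, 10.82 and 10.86 in erlotinib (-0.90, SE 0.09, adjusted p = 1e-06), while H2BC21 was higher (0.83). H2AC14 and H2BC14 were both lower (-1.16 and -1.80). H2AC1 and H2BC1 were both lower as well (-0.33 and -0.68), at low signal. In the pair H2BC13 and H2AC13, the former was lower (-1.22) and the latter was not called. H2AC6 lies head to head with H2BC4, 246 bases between starts, and no feature named H2BC4 alone.

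Of the 6 clustered genes listed for their polyadenylated transcripts, 5 had a feature of their own. H2AC6 and H2BC21 were higher, H1-2 and H2BC12 were lower and H2BC5 was not called, with a median of -0.01. H2BC12, an H2B gene, read 10.85, 10.90 and 11.01 in NTC DMSO and 10.30, 10.19 and 10.25 in NTC erlotinib (-0.67, SE 0.07, adjusted p = 4.04e-06). How transcripts with and without a poly(A) tail were labelled on these arrays is not stated in the paper or the labels.

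The genes that act with histones in S phase were listed as context. All 25 measured genes of the S phase list were lower with erlotinib in NTC, with a median of -1.54. Among them were CCNA2, the S and G2 cyclin (mean 9.96 in DMSO and 6.96 in erlotinib), CDC6, a licensing factor (-2.84), the helicase subunit GINS2 (-2.21) and the reductase subunit RRM2 (-2.14). Of 18 histone chaperone and assembly genes, 11 were lower and 1 higher (median -0.38). The lower ones included HJURP, the CENPA chaperone (-2.47), ASF1B, which carries new H3 and H4 (-1.25), and the CAF-1 subunits CHAF1A (-1.06) and CHAF1B (-0.81), whereas ATRX was higher (0.47). Of 7 replacement and variant histones, 5 were lower, among them the centromeric CENPA (-1.85), H2AX (-1.39), H2AZ1 (-1.12) and H2AZ2 (-0.39). Of 15 genes for the transcription and end processing of histone mRNA, 6 were lower and 1 higher (median -0.17). The lower ones included SLBP, which binds the stem-loop (-0.69), the exonuclease ERI1 (-0.68) and the cleavage factors CPSF2 (-0.49) and CSTF2 (-0.45), and GON4L was higher (0.23). NPAT, the activator of histone gene transcription, was at -0.17 (adjusted p = 0.0911).

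**Figure D4:**
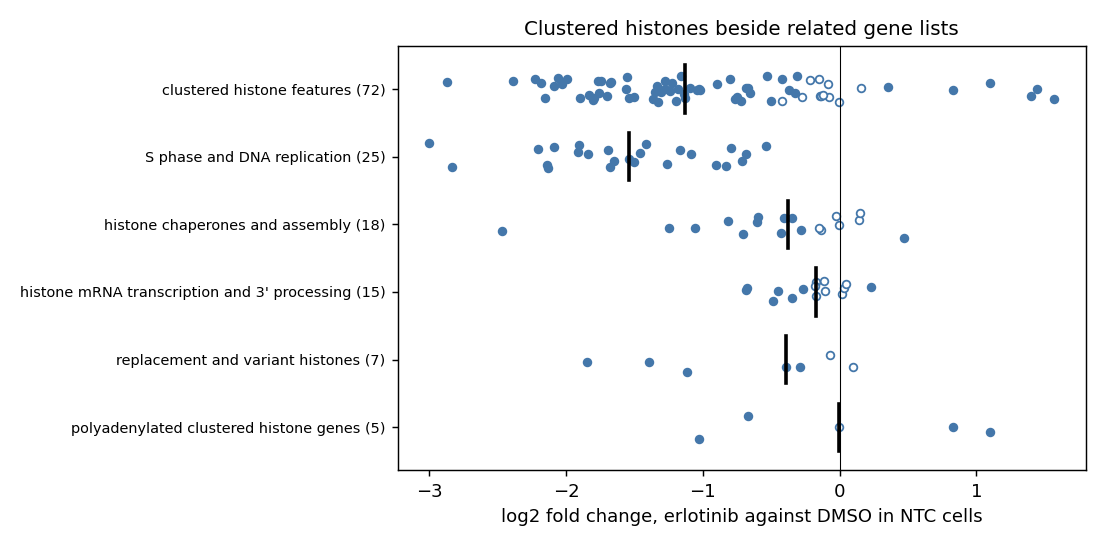
Log2 fold change of erlotinib against DMSO in NTC cells (x axis) for each member feature and each gene of 5 related lists (rows, with the number measured); filled points were called, vertical spread within a row carries no value, and black bars are medians. The S phase genes all lie below 0 (median -1.54), the clustered histone features mostly so (median -1.13).

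The fall with erlotinib was also seen under either knockdown. In N1 cells 59 members were lower and 5 higher (all features, 8.89% and 12.9%), with a median of -1.19, and in N3 cells 60 were lower and 3 higher (all features, 11% and 16%), with a median of -1.37. The features that rose in NTC cells had smaller differences here. H4C8-first differed by 0.73 in N1 (adjusted p = 0.000169) and by 0.26 in N3, where it was not called (adjusted p = 0.115). H2AC6 was higher by 0.55 in N1 and by 0.53 in N3. H2BC21 was higher by 0.46 in N1 (adjusted p = 0.00711) and at 0.12 in N3 (adjusted p = 0.543). The change between NTC and either knockdown equals the difference of the knockdown effects, which was called for H4C8-first in both and for H2BC21 in N3 (adjusted p = 0.0471, lost under 19 of 28 alternatives), but not for H2AC6 (-0.55, adjusted p = 0.11 in N1 and -0.56, adjusted p = 0.206 in N3).

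Within erlotinib, some histone features were lower in N3 than in NTC cells. Of the 72 members, 21 were lower, 51 were not called and none was higher (all features, 2.39% and 2.21%; features that name a gene, 4.3% and 3.67%), with a median of -0.27 against -0.02 over all features. By the thresholds of the Methods 1 was lower and none higher (all features, 0.0354% and 0.0454%). That was H3C2-first, at 5.67, 5.75 and 5.47 in NTC and 4.28, 4.50 and 4.32 in N3 (-1.26, SE 0.09, adjusted p = 7.62e-07, limma). On the N3 erlotinib arrays this feature fell below the array median. The H3C7-first features (-0.65 and -0.60), H2BC21 (-0.61) and H4C8-first (-0.59) were lower as well. H2BC21 read 7.61, 7.50 and 7.68 in N3 erlotinib, below every NTC erlotinib array. Of the features with 1 gene 4 of 35 were lower (median -0.19). Of those with several, which share many of their genes, 17 of 37 were lower (median -0.29). Among the single-gene calls, H2BC14 was lost under 18 of 28 alternatives, H2AC21 under 12, H1-4 under 4 and H2BC21 under 1. Among the others, a H2AC19-first feature (18 of 26) and H3C6-first (16 of 25) lost theirs most often. The lower calls comprised 1 of 6 H1, 5 of 17 H2A, 3 of 21 H2B, 5 of 13 H3 and 7 of 15 H4 features. Of the S phase genes, 14 of 25 were lower in the same comparison (median -0.25). Leaving out 1 array at a time gave 14 to 21 members lower, the compared arrays alone gave 13, and averaging features of the same genes into 43 units gave 10.

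In DMSO, N3 cells had 3 members higher and none lower (all features, 1.74% and 0.821%). Of features that name a gene, 3.51% were higher and 1.41% lower, so the count of higher members was near that share. All 3 were H4 features: H4C8-first (0.72, adjusted p = 0.00158, limma) and the chromosome 1 H4C15-first features (0.51 and 0.50). H4C8-first read 6.73, 7.22 and 7.21 there, above the NTC DMSO arrays. Both knockdowns in DMSO were compared with the same NTC DMSO arrays. Without NTC DMSO replicate 3, 6 members were higher, and with features of the same genes averaged none was called.

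In N1 cells, DMSO gave 4 members higher and none lower (all features, 1.17% and 0.811%). Of features that name a gene, 2.22% were higher and 1.65% lower. H4C8-first read 7.43, 7.59 and 7.75 against 6.42, 6.23 and 6.35 in NTC (1.26, SE 0.11, adjusted p = 1.69e-05), and the chromosome 1 H4C15-first features differed by 0.91 and 0.88. H2AC6 read 6.90, 6.88 and 7.09 and was higher by 0.50 at an adjusted p of 0.0495, a call lost under 19 of 30 alternatives. In erlotinib, N1 cells had 3 members higher and 3 lower (all features, 3.1% and 3.87%). Of features that name a gene, 5.72% were higher and 4.04% lower, so both member counts were near these shares. H2BC12 was higher, at 10.95, 10.97 and 10.77 against 10.30, 10.19 and 10.25 in NTC (0.65, SE 0.07, adjusted p = 8.34e-05), and so were H4C8-first (0.42) and H2BC14 (0.31). The chromosome 6 H4C15-first feature (-0.44), H4C5-first (-0.27) and H4C11-first (-0.26) were lower. The calls of H2BC14 were lost under 20 of 29 alternatives, those of H4C5-first under 14 of 27, H4C8-first under 10 of 27 and H4C11-first under 8 of 27, whereas H2BC12 and the chromosome 6 H4C15-first feature lost theirs under 1. The NOTCH1 difference was not called on these arrays. Only 1 member was called higher without N1 erlotinib replicate 1 or 2, NTC erlotinib replicate 2 or 3, or N1 DMSO replicate 2, and only 1 lower without N1 erlotinib replicate 1 or 3 or NTC erlotinib replicate 2 or 3.

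**Figure D5:**
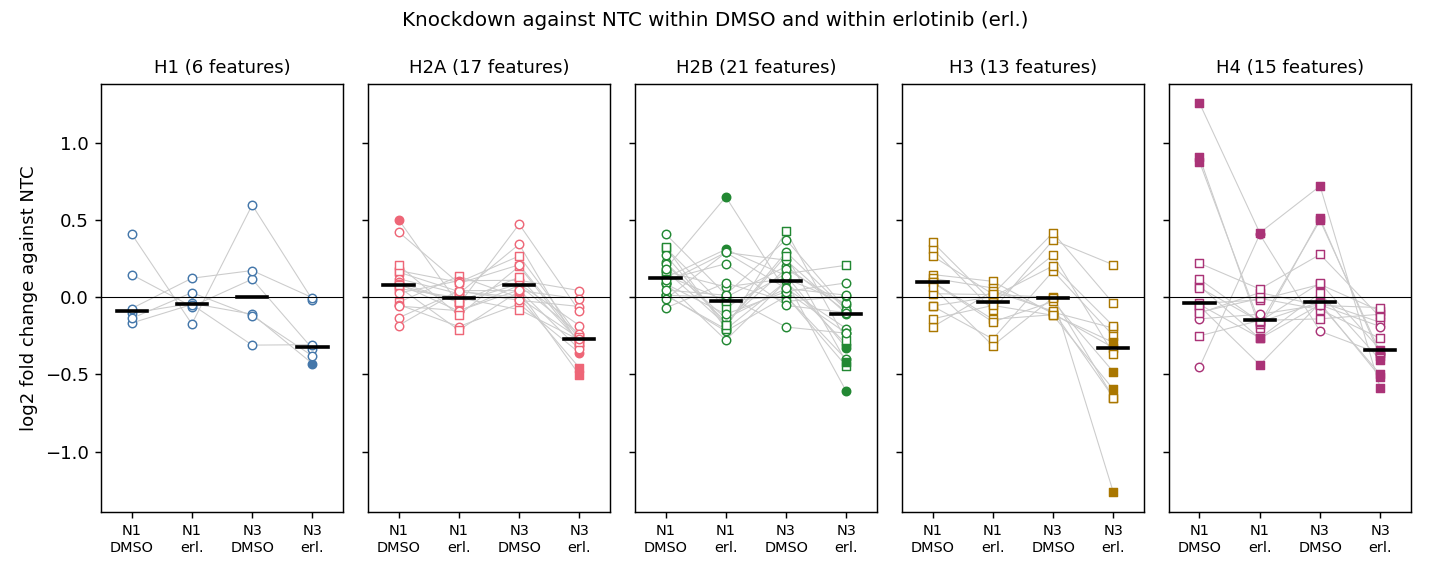
Log2 fold change against NTC (y axis) of N1 and N3 within DMSO and within erlotinib (erl.; x axis), in 1 panel per class; symbols, bars and lines as in the erlotinib plot by class. The N3 erlotinib column lies mostly below 0 (21 members lower), and the H4 features called higher in DMSO are H4C8-first and the H4C15-first features.

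The knockdown effects differed between erlotinib and DMSO in some members. For N3, the effect was lower in erlotinib for 10 members and higher for none (all features, 0.665% and 0.257%). Among features that name a gene the shares were 1.41% and 0.423%. The median member difference was -0.38, against 0.01 over all features. H4C8-first had the lowest difference (-1.31, SE 0.16, adjusted p = 6.52e-04), then H3C2-first (-1.26, adjusted p = 1.38e-04) and the chromosome 1 H4C15-first features (-0.89 and -0.86). In DMSO, H3C2-first read 8.63, 8.48 and 8.40 with N3, overlapping NTC DMSO. The count fell to 5 without NTC DMSO replicate 1, NTC erlotinib replicate 1 or N3 DMSO replicate 2, and to 6 without N3 erlotinib replicate 6, NTC erlotinib replicate 3 or N3 DMSO replicate 1. For N1, the effect was lower in erlotinib for 3 members and higher for 2 (all features, 1.33% and 0.878%). Among features that name a gene the shares were 1.3% and 1.69%. The lower were the H4C15-first features (-1.11 and -1.05) and H4C8-first (-0.84), and the higher were H4C3 (0.86) and H2BC12 (0.47). H4C3 read 9.55, 9.38 and 9.30 in N1 DMSO and 8.70, 8.70 and 8.31 in N1 erlotinib. The higher calls fell to 0 without N1 erlotinib replicate 1 or 2 or N1 DMSO replicate 2 or 3 and to 1 without NTC DMSO replicate 3 or NTC erlotinib replicate 2 or 3, and the lower calls grew to 5 without NTC DMSO replicate 3 or NTC erlotinib replicate 2.

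Within groups, over 2556 pairs of members the median correlation of deviations from the group mean was 0.16 on 18 arrays (quartiles -0.06 and 0.36), and 0.17 within a class. Single arrays stood out in NTC DMSO, where 9 of 72 members lay above the group mean on replicate 1 and 60 of 72 on replicate 3. Their median deviations were -0.13 and 0.10, against 0.01 and 0 over all features. Without replicate 1, 54 members were lower with erlotinib in NTC and 6 higher, and without replicate 3, 52 were lower and 6 higher.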

How the data were processed

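RNA of 18 arrays (6 groups of 3) was quantified by the authors with Affymetrix Expression Console: background correction, normalization between arrays and RMA summarization gave the deposited log2 values, which carry 2 decimals. Neither its version nor the build behind the annotation is given in the sources used here. Symbols came from the platform's gene table, and 3 old symbols were updated through RefSeq. Whether the arrays of a group came from separate cultures is not stated, so p-values measure the spread between arrays.

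All 70523 features were fitted without a low-signal filter in limma 3.58.1 (R 4.3.3; lmFit, contrasts.fit and eBayes on 6 group means, 9 comparisons). Benjamini-Hochberg adjustment ran over all features. The code was tested on simulated data. The number of arrays limits the precision. Members, lists and tests were chosen with earlier results of these data known. Named with values were the 2 lowest and 2 highest features per class and kind with erlotinib in NTC, members called against their class, the 3 lowest and 3 highest calls of each knockdown comparison, the polyadenylated list and up to 4 genes per other list. Others named were chosen after their values were seen. Alternatives were filters, scalings, averaging of features, single arrays left out, fits to the compared arrays and a replicate block.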

Additional observations from a re-analysis of the deposited data

Results flagged for a closer look

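The knockdown effect was tested for a difference between erlotinib and DMSO (interaction in limma, adjusted over all features), and these members passed. For N1 they were the chromosome 1 H4C15-first features (-1.107 and -1.047), H4C8-first (-0.84), H4C3 (0.86) and H2BC12 (0.467). For N3 they were H4C8-first (-1.31), H3C2-first (-1.263), the H4C15-first features (-0.893 and -0.857), H2BC21 (-0.713), H2BC8-first (-0.69), H2AC25 (-0.66), H2AC8-first (-0.543), a H2AC19-first feature (-0.457) and H3C12-first (-0.457). The call was lost under 19 of 28 alternatives for H2BC21, 16 of 26 for H2AC8-first, 14 of 28 for H2AC25, 14 of 26 for H3C12-first and 8 of 26 for H2BC8-first (N3), and under 11 of 29 for H2BC12 and 5 of 29 for H4C3 (N1). The other members listed lost it under at most 1. A negative value means that the effect against NTC was lower in erlotinib than in DMSO. Both sets share the NTC arrays, and N3 erlotinib carries its own replicate numbers, so separate handling of that group cannot be told apart from the effect.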

How the results depend on the processing

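Over 82 results for named members, no alternative turned the direction of a result that was called. In 4 cases the sign was not kept, each for a result called neither in the main fit nor in the alternative. Counts of members called, higher and lower, moved as follows, and the cause was not tested unless fewer features or arrays were used. With the 50th percentile filter and 1 feature per gene together, which left 28 members, erlotinib gave 3 and 24 in NTC, 2 and 24 in N1 and 1 and 25 in N3; N1 in erlotinib gave 0 lower, N3 in erlotinib 10 lower, N1 in DMSO 2 and 1, and the difference of N3 effects 3 lower. With features of the same genes averaged into 43 units, erlotinib gave 3 and 34 in NTC, 2 and 35 in N1 and 1 and 36 in N3; N1 in erlotinib gave 0 lower, N3 in erlotinib 10 lower, N1 in DMSO 2 higher, N3 in DMSO 0 higher, and the differences of effects 1 lower (N1) and 6 lower (N3). The Methods' thresholds gave 0 higher with erlotinib in N1 and in N3, 0 and 0 for N1 in erlotinib, 1 lower for N3 in erlotinib, 1 higher for N1 and 0 for N3 in DMSO, 0 higher for the difference of N1 effects and 2 lower for N3. Centring arrays on their median gave 3 higher with erlotinib in N1, 1 and 1 for N1 in erlotinib and 1 higher for the difference of N1 effects. The 50th percentile filter gave 5 higher for N1 in erlotinib, 1 lower for N1 and 5 higher for N3 in DMSO, and 5 (N1) and 17 (N3) lower for the differences; the 75th gave 1, 5, 6 and 16 for the last 4 of these. Features that name a gene gave 5, 2, 7, 8 and 18 for the same 5. The compared arrays alone gave 1 and 1 for N1 and 13 lower for N3 in erlotinib, 1 higher for N3 in DMSO, and 1 higher (N1) and 6 lower (N3) for the differences. Quantile normalization gave 1 lower for N1 in DMSO and 16 lower for the difference of N3 effects, and so did limma's trend and robust options (1 and 16), which also gave 5 higher for N1 in erlotinib.

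Same-numbered arrays did not all correlate over 0.1 in any pair of groups (NTC DMSO and N1 DMSO: 0.367, 0.091 and 0.219), so the numbers were not taken as pairs. A replicate block over 15 arrays gave 1 higher for N1 in erlotinib and 1 for the difference of N1 effects. A block over the 6 arrays of N1 and NTC in DMSO, chosen after seeing the data, gave 0 higher.

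Leaving out 1 array gave, higher and lower, 6 to 6 and 51 to 56 with erlotinib in NTC, 5 to 5 and 57 to 60 in N1, 3 to 3 and 59 to 61 in N3, 1 to 4 and 1 to 3 for N1 and 0 to 1 and 14 to 21 for N3 in erlotinib, 3 to 4 and 0 to 1 for N1 and 3 to 6 and 0 to 0 for N3 in DMSO, and 0 to 2 and 3 to 5 (N1) and 0 to 0 and 5 to 11 (N3) for the differences. N1 in DMSO had 1 lower without NTC DMSO replicate 1, N1 erlotinib replicate 3 or N3 erlotinib replicate 4, and N3 in erlotinib had 1 higher without NTC erlotinib replicate 1.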
